A study of Drosophila melanogaster with 3 samples.

Results

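The cytoplasmic ribosomal protein genes of Drosophila melanogaster were examined for Deaf1 at their starts. Members were protein-coding genes of Ensembl release 115 whose symbols begin with RpL, RpS or RpLP followed by a number, plus sta, which encodes the small subunit protein RpSA. The rule gave 91 genes of 13945 protein-coding genes. By role they were 45 large subunit genes, 38 small subunit genes with sta, 3 genes of the stalk (RpLP0, RpLP1 and RpLP2) and 5 genes whose symbols end in -like. A gene was called bound when a peak summit of the authors' optimal set lay within 500 bp of any of its annotated transcription start sites (TSSs). The optimal set is the part of the pooled peak list kept by irreproducible discovery rate (IDR), which asks how well the ranks of peaks hold between replicates. By this call 44 members were bound and 47 were unbound.

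The series holds 1 group of 3 biological replicates of whole embryos aged 0 to 24 hours, with both sexes pooled. All of them came from a line that stably expresses Deaf1 fused at its C terminus to enhanced green fluorescent protein (Deaf1-eGFP), and DNA bound by the fusion was sequenced after immunoprecipitation against GFP (ChIP-seq). No other genotype or condition was part of the series, so nothing below compares conditions, and the 1 possible control experiment that the labels name was not used here. In whole embryos of this age range, binding in a few cell types and weak binding in all of them cannot be told apart.

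Ribosomal proteins coat and hold together the ribosomal RNA of the small and large ribosomal subunits, and the stalk proteins of the large subunit recruit the translation factors that drive elongation. Loss of 1 copy of many of these genes slows growth and gives the thin-bristled Minute phenotype, so their output has to be high and matched. Many of their promoters in flies lack a TATA box, start within a pyrimidine stretch (the TCT initiator) and carry the DNA replication-related element (DRE), which is bound by the factor Dref. Deaf1 contacts DNA through its SAND domain, which recognises TTCG.

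The promoters below were printed because they show the kinds of start found among bound and unbound members. Each runs from 90 bases before a TSS to 20 bases from the TSS on, 5′ to 3′ on the gene's strand, and was read from the RefSeq copy of the dm6 genome (Release 6). Capitals mark the DRE word TATCGAT and the extended Deaf1 word TTCGG, each on either strand, and CTTT of a pyrimidine initiator starting within 3 bp of the TSS. The first 5 are bound members: RpL13A with an extended Deaf1 word, RpL13, RpL32 and RpS12 with the DRE word, and RpS27 with none of these words. RpL32 also carries CTTT of a pyrimidine initiator.
RpL13A (chr3R:5624384-5624493, plus strand): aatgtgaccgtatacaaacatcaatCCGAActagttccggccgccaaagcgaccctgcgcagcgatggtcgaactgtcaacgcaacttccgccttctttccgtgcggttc
RpL13 (chr2L:9967223-9967332, plus strand): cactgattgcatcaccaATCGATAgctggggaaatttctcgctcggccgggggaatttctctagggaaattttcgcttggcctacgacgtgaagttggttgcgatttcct
RpL32 (chr3R:30046142-30046251, minus strand): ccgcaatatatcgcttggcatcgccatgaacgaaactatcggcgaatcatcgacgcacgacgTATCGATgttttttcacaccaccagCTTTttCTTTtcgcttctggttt
RpS12 (chr3L:13023262-13023371, plus strand): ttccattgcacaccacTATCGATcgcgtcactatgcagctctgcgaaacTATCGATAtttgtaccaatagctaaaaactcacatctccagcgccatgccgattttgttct
RpS27 (chr3R:25247495-25247604, minus strand): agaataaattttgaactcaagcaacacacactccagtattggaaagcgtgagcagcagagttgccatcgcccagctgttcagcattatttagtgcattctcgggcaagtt
The other 4 are members with no peak within 500 bp in any list: RpS27A, which carries both the extended Deaf1 word and a pyrimidine initiator, RpL36A and RpS30 with the DRE word, and RpL5 with none.
RpS27A (chr2L:10408262-10408371, plus strand): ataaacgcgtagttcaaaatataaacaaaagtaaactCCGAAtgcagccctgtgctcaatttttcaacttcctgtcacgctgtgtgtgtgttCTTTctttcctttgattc
RpL36A (chr2L:8042890-8042999, minus strand): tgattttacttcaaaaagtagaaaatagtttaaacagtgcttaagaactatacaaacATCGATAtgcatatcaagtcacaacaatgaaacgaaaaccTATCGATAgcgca
RpS30 (chr3R:20850426-20850535, plus strand): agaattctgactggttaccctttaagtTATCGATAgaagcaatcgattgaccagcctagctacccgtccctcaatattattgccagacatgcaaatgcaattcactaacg
RpL5 (chr2L:22536865-22536974, minus strand): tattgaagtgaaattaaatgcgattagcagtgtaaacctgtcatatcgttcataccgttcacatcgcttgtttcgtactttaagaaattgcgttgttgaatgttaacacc
The same words thus stood at starts with and without a Deaf1 peak.

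Of the 91 members 44 were bound, a share of 48.4% with an exact 95% interval over genes of 37.7% to 59.1%, against 27.8% of all protein-coding genes. When the 8667 strongest peaks of each replicate's own list were used in place of the optimal set, 43, 48 and 39 members were bound in replicates 1, 2 and 3, against 27.2%, 28.9% and 27.2% of all genes. Members were above the background in each replicate. Among the 4333 summits of highest signal in the optimal set the shares lay closer together, with 22 members bound (24.2%), against 18.0% of all genes. No interval was computed for this share, so it does not set the members apart.

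A gene with more annotated starts has more chances to lie near a summit, and the members' excess differed with the number of starts. Of 46 members with 1 TSS, 22 were bound (47.8%), against 19.7% of all genes with 1 TSS. Of 29 members with 2 TSSs, 15 were bound (51.7%, exact interval 32.5% to 70.6%), against 42.0%, which lies inside that interval. Of 16 members with 3 or more TSSs, 7 were bound (43.8%, exact interval 19.8% to 70.1%), against 68.8%. The share of members called bound was thus about the same at each number of starts, while the background rose from below it to near the upper end of its interval.

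Bound members were found in both subunits and on each of the 6 chromosome arms with peaks. Large subunit genes were bound in 23 of 45 cases (51.1%), small subunit genes with sta in 17 of 38 (44.7%), the stalk genes in 3 of 3, and the -like genes in 1 of 5. The bound gene of the last class was RpLP0-like, whose human counterpart is a ribosome assembly factor. RpS3A, the only member on chromosome 4, was bound with a peak summit 6 bp upstream of its TSS.

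**Figure D1:**
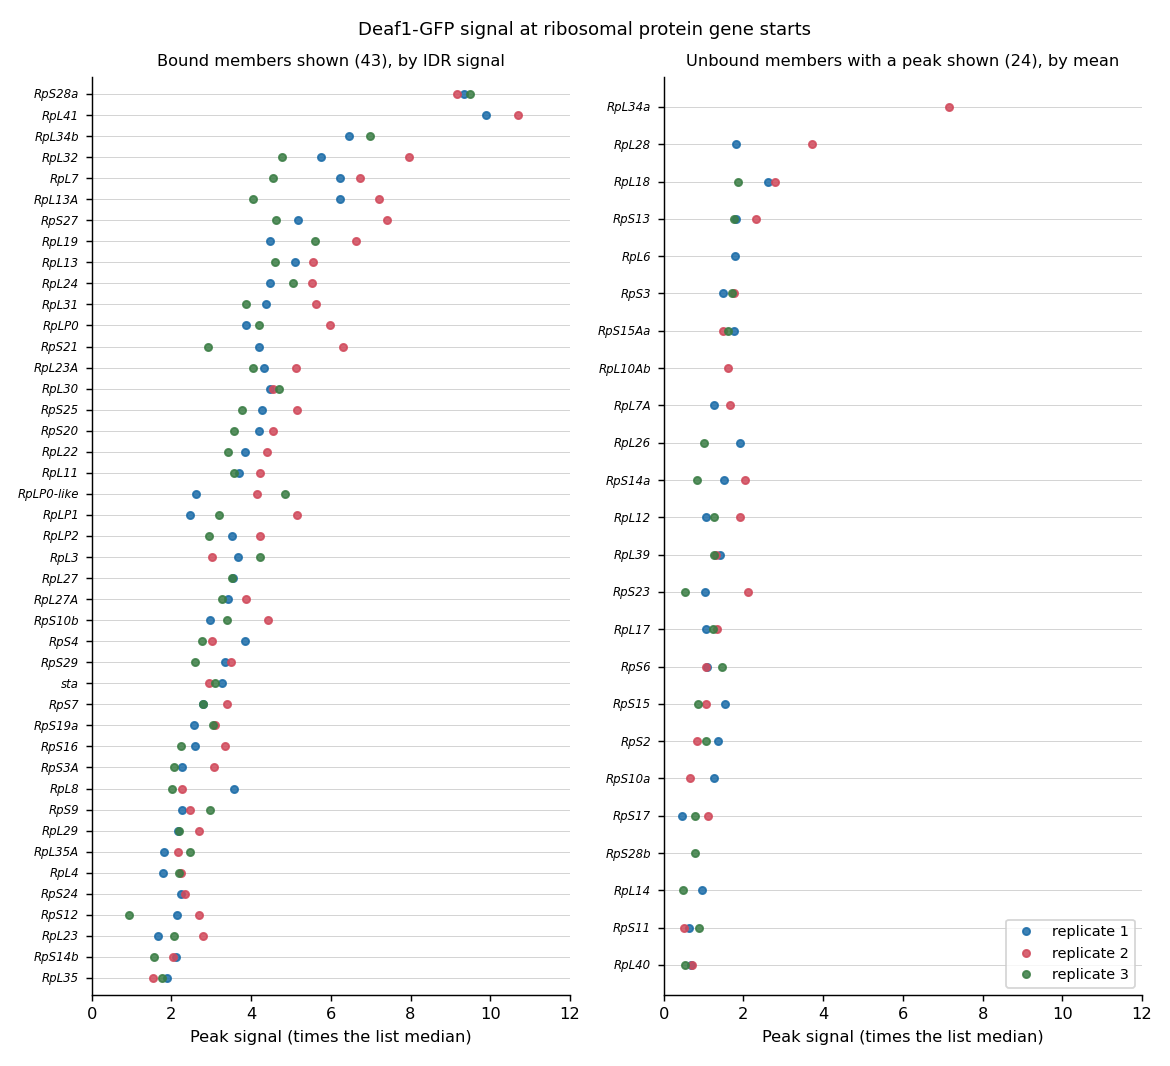
Peak signal within 500 bp of a TSS divided by the median signal of the replicate's own list (x axis), for 43 of the 44 bound members (left, ordered by optimal set signal) and 24 of the 27 unbound members with a peak (right, ordered by mean). Each point is 1 replicate. Most bound members lie between 2 and 6 times the list median, RpS28a and RpL41 stand near 10, and RpL34a has a point in replicate 2 alone.

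The peaks at bound members were of moderate height. In the optimal set their signal, the peak caller's own value, ran from 259.1 to 1391 with a median of 533.6. For all 3878 bound protein-coding genes the median was 741 and the upper quartile 1676. None of the 44 members lay above that upper quartile, where 25.0% of all bound genes lay, and a count of 0 of 44 allows a share of up to 8.04% (exact interval). Of the 44, 10 (22.7%) were above the median, against 50.0%. The lowest optimal set signal of any peak was 256.1, so the weakest bound members sat at the edge of the set.

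The replicates were then read apart, with each signal divided by the median of that replicate's list. The median over bound members was 3.62, 4.22 and 3.41 times the list median in replicates 1, 2 and 3 (3.75 ± 0.423, SD, n = 3). For all bound genes it was 5.0, 5.55 and 4.78 (5.11 ± 0.392). The ratio of the members' median to that of all bound genes was 0.724, 0.762 and 0.713 (0.733 ± 0.0257), below 1 in each replicate. This SD covers the replicates and not the sampling of genes. In each replicate 0 members exceeded the upper quartile of all bound genes.

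**Figure D2:**
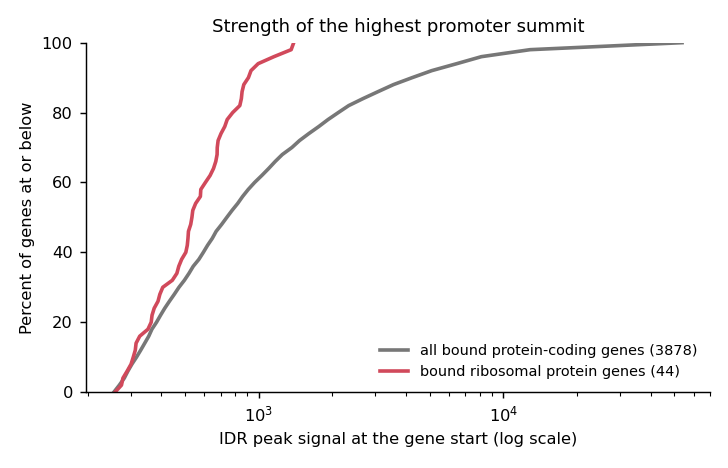
Percent of genes (y axis) whose highest summit has an optimal set signal at or below the value on the x axis (log scale), for the 44 bound ribosomal protein genes and for all 3878 bound protein-coding genes. The curves run together at their low end, with 10th percentiles of 307 and 317, and the members' curve ends at 1391 while that of all bound genes has its 90th percentile at 4241.

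Among the large subunit genes, RpL41, which encodes one of the smallest ribosomal proteins, had an optimal set signal of 1352. Its start stood at 9.88 times the list median in replicate 1 and 10.7 in replicate 2, and replicate 3 listed no peak there. RpL34b had 1078 in the optimal set, with 6.45 and 6.98 in replicates 1 and 3 and no peak in replicate 2. Each of these strong starts thus went unlisted in 1 of the 3 replicate lists. RpL32, the gene often used as a reference in fly expression assays, had 924, with 5.76, 7.96 and 4.78 (6.17 ± 1.63).

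The next large subunit genes had closely similar peaks. RpL7 reached 872, with 6.22, 6.74 and 4.56 times the list median in the 3 replicates (5.84 ± 1.14). RpL13A reached 856, with 6.23, 7.20 and 4.05 (5.83 ± 1.62), and RpL19, a classical Minute locus, reached 833, with 4.48, 6.64 and 5.61 (5.58 ± 1.08). Their means lay within 1 SD of each other and do not set an order. RpL13 had 750 in the optimal set, and its 3 replicates were close at 5.10, 5.54 and 4.59 (5.08 ± 0.475). At the other end, RpL35 had the lowest bound signal, 259.1, with 1.90, 1.54 and 1.76. RpL23 had 279, with 1.67, 2.78 and 2.08.

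The 3 stalk genes were bound at middle heights. RpLP0, the base of the stalk, had 683 in the optimal set and 3.87, 5.97 and 4.19 times the list median (4.68 ± 1.13). RpLP1 had 533.7, with 2.47, 5.15 and 3.20, and RpLP2 had 533.6, with 3.51, 4.21 and 2.94. Replicate 2 was the highest for all 3 stalk genes, as it was for the median over all bound genes.

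Among the small subunit genes, RpS28a had the highest signal of any member, 1391, which ranked 1634 of the 8667 summits. Its replicates gave 9.35, 9.15 and 9.50 (9.34 ± 0.175) and varied less than those of the other strong members. Its highest summit (chr3R:30022165) did not lie at its own start, however: it was 483 bp downstream of the RpS28a TSS and 180 bp past the 3′ end of this short gene, and 56 bp from the TSS of Mgat2, an enzyme of N-glycan branching on the same strand. RpS27 had 849, with 5.18, 7.41 and 4.63 (5.74 ± 1.47). The lowest small subunit genes were RpS14b with 278 (2.12, 2.05 and 1.56 times the list median), RpS12 with 298 (2.13, 2.69 and 0.948) and RpS24 with 305 (2.25 and 2.34, with no peak in replicate 3). RpS12 is known for its part in the competition between wild-type and Minute cells.

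As a class the large subunit starts carried higher peaks than those of the small subunit. The median optimal set signal was 663 over 23 bound RpL genes and 455 over 17 bound RpS genes with sta. Relative to the list median the RpL genes gave 4.31, 4.54 and 3.96 in the 3 replicates and the RpS genes 2.96, 3.34 and 2.95. The ratio was 1.46, 1.36 and 1.34 (1.39 ± 0.0608), above 1 in each replicate. The replicates share the IDR call that chose these genes, so the ratio is a description.

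Bound members kept much the same order in each replicate. Across the 40 members with a peak in all 3 lists, Spearman's rho of the relative signal was 0.871 for replicates 1 and 2, 0.817 for replicates 1 and 3 and 0.820 for replicates 2 and 3. These points share their promoters and the choice by the pooled signal, and the values are descriptions across genes. Of the same 40 members 29 were highest in replicate 2, 5 in replicate 1 and 6 in replicate 3. The median over all bound genes was also highest in replicate 2 (5.55, against 5.0 and 4.78), so this is not particular to the members. In the top lists, 34 of the 44 bound members were found in all 3 replicates (77.3%, against 83.2% of all bound genes), 9 in 2 and 1, RpL35, in 1. A replicate list without any peak at the start was found for 4 bound members: RpL27 and RpL34b in replicate 2 and RpL41 and RpS24 in replicate 3 (9.09%, against 3.27%).

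The unbound members were not uniformly without signal. A peak within 500 bp in at least 1 of the 4 full lists was present for 71 of the 91 members (78.0%, against 47.2% of all genes), and a pooled peak of any rank for 62 (68.1%, against 39.6%). Of the 47 unbound members 18 had a pooled peak below the optimal set, 9 had a replicate peak without a pooled one (9.89% of the 91, against 7.61% of all genes), and 20 had none. Where a peak was listed, its median over unbound members was 1.39, 1.48 and 0.945 times the list median (1.27 ± 0.286, over 24, 23 and 20 genes). Full lists hold 30000 peaks each, and their lower ranks are weak calls.

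The call divided a continuous range of signals. RpS15Aa, the highest unbound member, had a pooled signal of 252.7 and replicates of 1.77, 1.48 and 1.62, which overlap those of bound RpL35. RpS13, a Minute locus, had a pooled signal of 246, with 1.81, 2.31 and 1.76, and RpS3 had 234, with 1.49, 1.77 and 1.70. RpS14a had 213, with 1.51, 2.05 and 0.826, and RpL12 had 193, with 1.05, 1.91 and 1.26. These 5 starts were just outside the set and RpL35, RpS14b, RpL23, RpS12 and RpS24 just inside it.

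Some replicate values went against the pooled call, and the members in this paragraph were chosen after their values were seen. RpL18 had peaks at 2.63, 2.78 and 1.87 times the list median in the 3 replicates, above several bound members, and no pooled peak within 500 bp; it was the 1 member of 91 with this pattern, against 0.602% of all genes. RpL34a was listed in replicate 2 alone, at 7.16 times the list median with its summit 48 bp upstream of the TSS, while its paralog RpL34b was unlisted in that replicate and had 6.45 and 6.98 in the others. How reads of such copies were assigned was not tested. No unbound member was in the top lists of all 3 replicates, against 0.237% of all genes.

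The 20 members with no peak near a start in any list were RpL10, RpL10Aa, RpL15, RpL21, RpL22-like, RpL24-like, RpL36, RpL36A, RpL37A, RpL38, RpL5, RpL7-like, RpL9, RpS15Ab, RpS18, RpS19b, RpS26, RpS27A, RpS28-like and RpS30. They include RpS27A, whose product is made as a fusion with ubiquitin, and RpL5, which enters the large subunit together with RpL11. RpL11, in contrast, was bound, with an optimal set signal of 578 and 3.71, 4.23 and 3.57 times the list median. For RpL10, RpL5, RpL38 and RpL15 the nearest optimal set summit was 146818, 384606, 1175358 and 2543342 bp away, and only 173 genes of all 13945 had none within 100 kb. RpL5, RpL15 and RpL38 are known as genes of pericentromeric heterochromatin.

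Flies carry several ribosomal protein genes as duplicated a and b copies, of which one is often expressed widely and the other mainly in the germ line. Of the 16 copies in 8 a/b pairs 5 were bound (31.2%, against 27.8% of all genes), which is near the background. No pair had both copies bound. In 5 pairs 1 copy was bound, namely RpL34b, RpS10b, RpS14b, RpS19a and RpS28a, and in 3, among them RpL10A and RpS15A, neither was. The highest RpS28a summit was 483 bp downstream of its TSS and 56 bp from that of Mgat2. The optimal set summit nearest to the RpS28a TSS was 283 bp away. RpS10b gave 2.96, 4.42 and 3.40 times the list median, while RpS10a gave 1.26 and 0.667 and was unlisted in replicate 3. RpS19a gave 2.56, 3.10 and 3.04, while RpS19b, a copy of the germ line, had no peak in any list. RpS14a and RpS14b are tandem genes on the X with the same protein product, and their replicate values overlapped. RpS28b, on the X, had its TSS inside an optimal set interval whose summit was 855 bp away, and a single weak peak of its own, 0.776 in replicate 3. Copies of near-identical sequence may share reads, and how signal was split within a pair was not tested.

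Deaf1 summits sat close to the starts of these genes. The median summit of bound members was 25.5 bp upstream of the TSS, with quartiles at -62.8 and -1.75 bp. For all bound genes the median was -67 bp with quartiles at -154 and 7 bp. With the summit nearest to a TSS in place of the highest, the medians were -25.5 bp in members and -52 bp in all bound genes. Of the 44 summits 28 lay within 50 bp of the TSS (63.6%, against 30.8%), and 37 within 100 bp (84.1%, against 51.8%). A summit upstream of the TSS was about as frequent in the members, 33 of 44 or 75.0%, as in all bound genes, 72.5%. In the replicates' own lists the members' medians were -16.5, -46 and -21 bp (-27.8 ± 15.9). The called intervals were narrower as well, with a median of 332.5 bp against 470 bp for all bound genes.

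**Figure D3:**
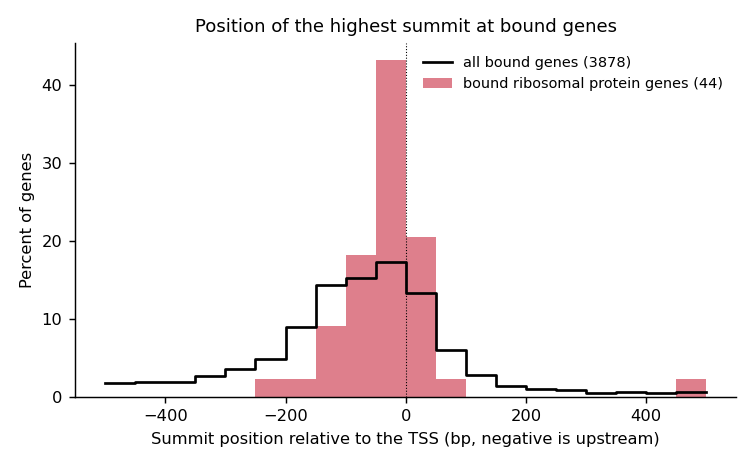
Position of the highest optimal set summit relative to the TSS in bins of 50 bp (x axis, negative is upstream), as a percent of the 44 bound ribosomal protein genes (bars) and of all 3878 bound genes (line). The bin from -50 to 0 bp holds 43.2% of the members and 17.3% of all bound genes, and the member beyond 450 bp is RpS28a.

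By annotation 24 of the 44 summits were intergenic, 17 were in a 5′ UTR, 3 were in an intron and 0 in coding sequence. The same shares over all bound genes were not computed, so these counts do not set the members apart. The summits nearest a TSS were those of RpL31, RpL4 and RpS4, members named after their values were seen, at 2, 3 and 5 bp from it. RpLP2 had the summit farthest upstream, at -214 bp.

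Many of these summits also lay near the start of a neighbour, at distances of up to 481 bp (RpL31). Another protein-coding TSS was within 500 bp of the summit for 23 of 44 bound members (52.3%, against 33.1% of all bound genes). Bound or not, 38 of the 91 members and 4309 of the 13945 genes had another protein-coding TSS within 500 bp of their own. How far this arrangement accounts for the difference was not tested. Within 250 bp of the summit it was 15 (34.1%, against 26.9%). With the limit of 500 bp, members and neighbours made 24 pairs, of which 23 were divergent, with a median of 292 bp between both starts (30 to 556 bp). The other 1, RpS28a with Mgat2, ran on the same strand. The divergent share over all bound genes was not computed. The ribosomal protein gene's own TSS was the nearer in 19 of the 23 (82.6%, against 54.4%). The background mostly counts both genes of a shared summit, 1 nearer and 1 farther, so its share is largely set by construction. The other gene was nearer for RpL13, RpL34b, RpLP0-like and RpS28a.

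The neighbours of the strongest members had varied roles. RpL13 faces Dref, the gene of the DRE-binding factor, with 84 bp between the starts and the summit 35 bp from that of Dref. RpL7 faces Ripalpha, a gene of a replication protein A partner, with starts 30 bp apart and the summit 54 bp from its TSS. RpL41 shares its summit with NaCP60E, a sodium channel gene, 107 bp away, and RpS27 with Nup37, a nuclear pore gene, also 107 bp away. RpL13A faces Dph4, which acts in the diphthamide modification of elongation factor eEF2, and Spec2, whose annotated starts coincide 295 bp from the summit. The summits of RpL19, RpL32 and RpL34b lay 106, 207 and 127 bp from the starts of CG3776, CG7943 and CG8132.

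Members that shared a summit had the higher signal, unlike bound genes as a whole. The median optimal set signal was 683 for the 23 that shared and 468 for the 21 alone, while over all bound genes it was 570 for those that shared and 878 for those alone. Median positions were -49 bp for the sharing members and -15 bp for those alone. Over all bound genes they were -121 bp and -43 bp, so this difference had the same direction there. Members were above the background with and without a close neighbour. With no other protein-coding TSS within 500 bp of their own, 21 of 53 were bound (39.6%, exact interval 26.5% to 54.0%), against 25.1%, and with such a neighbour 23 of 38 (60.5%), against 33.9%.

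Sequence words were then sought on both strands within 50 bp of each bound member's highest summit. The Deaf1 core TTCG was present in 31 of 44 windows (70.5%), against 68.2% of all bound genes. At the summits of the replicates' own top lists it was in 58.1%, 64.6% and 51.3% of members (58.0 ± 6.65%), against 67.9 ± 2.32% of all genes, so members were not above the background there. The extended word TTCGG was present in 6 of 44 (13.6%, exact interval 5.17% to 27.4%), against 30.0%. In equal windows centred 300 bp to the right of the summits it was in 11 of 44 members (25.0%), against 16.8% of all bound genes, so in members it was no more frequent at the summits than beside them. All 6 lay at summits shared with another gene: RpL13A, RpL41, RpL7, RpLP0, RpS16 and sta. Of the 21 members alone at their summit 0 had it, which allows up to 16.1% (exact interval), against 37.2% of all bound genes that were alone. In the printed RpL13A promoter the word is centred 63 bp upstream of the TSS and 9 bp from the summit.

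The DRE word TATCGAT showed the opposite balance. It was present in 10 of 44 windows (22.7%, exact interval 11.5% to 37.8%), against 4.49% of all bound genes. In the windows 300 bp to the right it was in 0 of 44, against 1.75%. Among the 10 genes were RpL13, RpL19, RpL27, RpL41, RpS12, RpS24, RpS25, RpS29 and RpS7, and over all 10 the word's centre lay 9 to 37 bp from the summit with a median of 18 bp. In the printed RpL13 and RpS12 promoters it lies 21 and 23 bp from the summit. In RpL32 the summit lies 102 bp upstream of the TSS, so the printed word falls outside the window. RpL41 alone held both TATCGAT and TTCGG, and 29 of the 44 windows held neither.

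The other words were unevenly represented as well. GAGAG, the word of the GAGA factor, was in 2 windows (4.55%, against 20.2%), at RpL29 and RpL4. CGATA, the word of the insulator protein BEAF-32, was in 18 (40.9%, against 18.6%), and each TATCGAT contains it on the other strand. GGTCACAC, the word of the factor M1BP, was in 3 (6.82%, against 1.75%), at RpL30, RpL7 and RpLP0. TATAAA was in 3 (6.82%, against 14.4%). The median GC content of the windows was 45.5% in members and 47.5% in all bound genes.

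**Figure D4:**
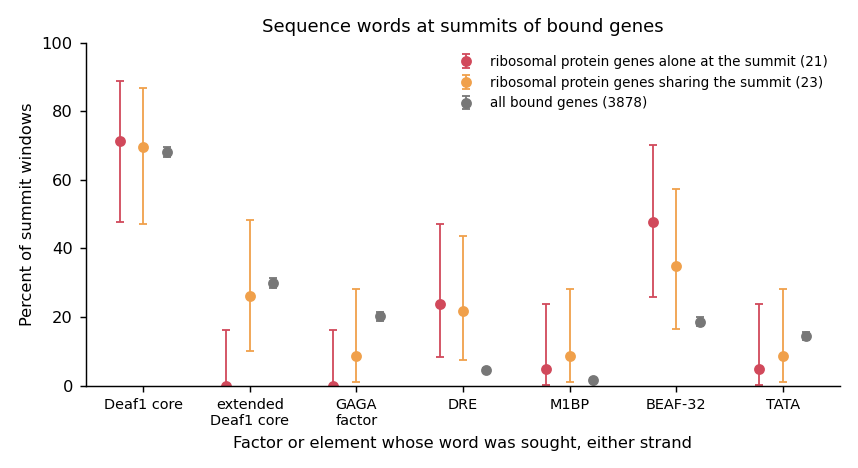
Percent of windows of 50 bp on each side of the highest summit that hold a word on either strand (y axis), for bound ribosomal protein genes alone at the summit, those sharing it with another gene's start, and all bound genes, with exact 95% intervals over genes. The x axis names the factor or element whose word was sought. The extended Deaf1 core is at 0 in members alone at the summit and at 26.1% in members that share it.

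The replicates' own top lists, each with its own summits, gave the same directions for these words, apart from TTCG as given above. TTCGG was at 6 of 43, 10 of 48 and 4 of 39 member summits (15.0 ± 5.37%), against 30.1 ± 0.689% of those of all genes. TATCGAT was at 7, 12 and 7 of them (19.7 ± 4.63%), against 4.14 ± 0.437%. GAGAG was at 1, 1 and 2 (3.18 ± 1.69%), against 20.4 ± 1.26%. The 3 lists score largely the same promoters, so these SDs cover repeated peak calling and not the sampling of genes. The absence of TTCGG from members alone at their summit did not recur in the replicates, where 1 of 21, 3 of 19 and 1 of 19 had it.

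Whether the words set bound members apart from unbound ones was read over the promoters, from 250 bp before to 50 bp after any TSS of a gene. The core TTCG was in 97.7% of bound and 95.7% of unbound members, against 92.1% of all genes. TATCGAT was in 36.4% of bound and 40.4% of unbound members, against 20.2% of all genes, and TTCGG in 45.5% and 42.6%, against 45.8%. A CTTT initiator, on the gene's strand and starting within 3 bp of a TSS, was in 34.1% and 34.0%, against 4.74% of all genes. TTCGG was thus at the background in both classes, and TATCGAT and the initiator were above it in both. A gene with more starts had more sequence searched, and 46 of the 91 members had 1 TSS, against 10246 of the 13945 genes. These shares were not split by the number of starts. The word with the widest gap was TATAAA, in 18 of 44 bound (40.9%) and 30 of 47 unbound members (63.8%), against 51.2%. It was picked from all the words sought after their values were seen, and the gap was not tested. CGATA was in 75.0% and 70.2%, against 53.0%. For GGTCACAC the shares were 20.5% and 14.9%, against 8.71%, and for GAGAG 25.0% and 17.0%, against 36.3%. Among all bound genes TTCGG was in 60.9% of promoters and GAGAG in 56.0%.

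The median signal was higher with TTCGG both in members and in all bound genes, while for TATCGAT the order of the medians was not the same. Members with TATCGAT at the summit had a median optimal set signal of 579 and those without it 533.6, whereas over all bound genes the medians were 486 with it and 766 without. With TTCGG the members' median was 769 and without it 525, and over all bound genes 1203 and 645. The members' medians with a word rest on 10 genes for TATCGAT and 6 for TTCGG. Of the 6, RpL13A, RpL41, RpL7 and RpLP0 lay above 525, and RpS16 (387) and sta (455) lay below it. All 6 were at shared summits, so the word and the sharing cannot be told apart.

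Ribosomal protein genes are also known as hosts of small nucleolar RNAs (snoRNAs), which guide modification of ribosomal RNA. A snoRNA gene on the same strand lay inside 29 of the 91 members (31.9%, against 0.602% of all genes). Among bound members the count was 17 of 44 (38.6%, against 1.13% of all bound genes) and among unbound members 12 of 47 (25.5%, against 0.397%). RpS7 held the most of any bound member, 7, and had a signal of 407.

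Other genes of translation were read beside the members, from lists chosen by symbol. Of 53 cytoplasmic initiation, elongation and release factor genes 14 were bound (26.4%, against 27.8% of all genes), and of 73 mitochondrial ribosomal protein genes 24 (32.9%). Their median optimal set signals were 896 and 640, against 533.6 for the members and 741 for all bound genes. The highest member (1391) was exceeded by 4 of the 14 and 4 of the 24. It lay between the 70th and 72nd percentiles of all bound genes (1367 and 1469), so neither count was clearly above the background. The strongest translation factor genes were eIF4EHP, a repressor that binds the messenger cap, with 3585 and 22.2, 29.0 and 20.9 times the list median, and eEF1alpha2, an elongation factor, with 3419 and 24.0, 22.8 and 22.5. RpL37-1 and RpL37-2, ribosomal protein genes whose symbols fall outside the rule, gave a weak bound peak (297, with 1.92, 2.78 and 1.30) and no peak in any list.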

How the data were processed

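Per the labels' protocols, Deaf1-GFP was mapped by ChIP-seq in 3 biological replicates on the dm6 build. Per the file headers, the authors called peaks on each replicate and on the pooled alignments, each against 1 control alignment, and derived an optimal set by irreproducible discovery rate (IDR). The aligner, the caller and the threshold applied were not given in the sources used here. The deposited signal comes from the caller, peak by peak, without scaling between lists, so it was used only within a list, as deposited or divided by the list's median (54.4, 52.7 and 41.1 in replicates 1, 2 and 3). The deposited −log10 q-value was not used to rank peaks. The deposited summit offset, added to the peak's start, gave the summit. Each full list holds 30000 peaks and the optimal set 8667. Peak files hold no reads, so depth is unknown, and intervals (exact Clopper-Pearson, 95%) cover counting over genes only, which are not independent.

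Genes and 19607 TSSs of protein-coding genes came from Ensembl release 115 and sequence from RefSeq, both dm6. Where several summits lay near a gene, the highest was taken. Values were computed with Python 3.11.15, numpy 2.4.6 and scipy 1.17.1. No test between groups was possible with 1 group. The genes named are the 10 bound members of highest and 5 of lowest signal, the 5 highest unbound members, those without a peak, a/b pairs and neighbours at shared summits, beside members that illustrate a class or position; a few of these are not reported here. Members and lists were chosen with earlier results of these data known. Alternatives changed the distance, the set, the TSSs, the window and the replicates.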

Additional observations from a re-analysis of the deposited data

How the results depend on the processing

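Of the alternatives tried, 3 moved a result. In the upper part of the optimal set by signal (4333 summits), 22 members were bound (24.2%, against 18.0% of all genes). With the other start required within 250 bp of the summit, 15 bound members shared it (34.1%, against 26.9%). Among members alone at the summit TTCGG was in 0 windows, against 37.2%; by construction this leaves out the shared summits. The count of bound members ran from 39 to 50 (42.9% to 54.9%, against 23.7% to 31.2% of all genes) for summits given to the nearest gene only, the most upstream TSS only, a distance of 250 or 1000 bp, a TSS inside the interval, the replicates' own lists and without the -like genes. Leaving out 1 replicate at a time gave 36 to 38 bound members (39.6% to 41.8%, against 23.8% to 24.2%), a median position of -25.5 to -25 bp, a bound signal of 3.51 to 3.92 and an unbound signal of 1.17 to 1.43 times the list median. Within 100 bp of the summit TTCGG was in 25.0% of members, against 44.8%. No paired analysis was possible because the series holds 1 group. Depth is unknown, so a member without a peak may have had signal below the lists' lowest ranks.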
